A study of Mus musculus with 12 samples.

Results

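Of the 55487 gene rows in a count table from mouse nasal tissue, 7 rows that lie on the DNA strand opposite histone genes were examined: 4930558J22Rik (opposite Hist1h4b), Gm20628 (Hist2h3b), Gm20632 (Hist2h2aa2), Gm15444 (Hist2h2ab), Gm44492 (Hist2h2ac), Gm44335 (H2afx) and Gm49544 (H1f0). The rows were picked by name with earlier results of the same libraries in view, above all their level at day 5 over vehicle, so the day 5 values are a description. All 7 passed the filter on low counts, which kept 13181 rows. The question was how the 6 rows opposite replication-linked histones and H2AX compare with the row opposite the linker histone H1f0.

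RNA was sequenced from 3 groups of 4 libraries: KDP20 at day 5, KDP20 at day 10, and a PBS vehicle whose libraries are all labelled day 10. All mice were C57BL/6 males of 6 weeks, no genetic change is labelled, and the sampled cells are labelled as nasal epithelium. The series title names diesel particles as the exposure, and the labels give neither the meaning of KDP20 nor its dose. Exposure and day of collection differ together between day 5 and vehicle. The labels do not say that each library came from its own animal, so the tests see only the spread among these samples, which may be technical. In bulk tissue, a change in the number of cells of one type and a change in RNA per cell cannot be told apart.

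Most histone proteins are made while DNA is copied, from small clustered genes whose messages lack introns and a poly(A) tail and end in a short stem-loop that is bound by the protein SLBP. H2AX, a variant of H2A that is phosphorylated around DNA breaks, is made from a gene whose message can end either at a stem-loop or at a poly(A) tail. H1.0, the product of H1f0, is a linker histone that binds DNA between nucleosomes, accumulates in cells that have stopped dividing, and comes from a polyadenylated message.

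The shortest rows are shown first, because their letters show how little separates them. Gm44335 at chr9:44334965-44335105 (minus strand) and Gm44492 at chr3:96220501-96220641 (plus strand) are both 141 bases long and lie wholly inside exons of H2A genes on the other strand. They are printed in the direction of the annotated row, in GRCm38 (mm10), with capitals at the 6 positions where they differ. The other 135 bases, or 95.7%, are the same.
Gm44335: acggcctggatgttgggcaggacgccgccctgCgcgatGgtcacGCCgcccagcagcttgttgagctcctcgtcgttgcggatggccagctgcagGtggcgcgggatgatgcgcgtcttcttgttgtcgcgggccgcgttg
Gm44492: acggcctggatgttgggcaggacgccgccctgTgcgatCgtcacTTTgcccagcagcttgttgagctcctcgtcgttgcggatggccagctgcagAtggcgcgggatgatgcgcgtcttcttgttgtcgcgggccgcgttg

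The histone stem-loop is shown next, because it is what divides replication-linked messages from polyadenylated ones. It was searched in the annotated transcripts as GG and any 4 bases, a loop of T and any 3 bases, and then the reverse complement of the first 6 bases, in the sense direction. The capitals mark stem and loop, and 5 flanking bases are shown on each side.
Hist1h4b: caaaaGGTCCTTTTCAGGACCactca
Hist2h2aa2: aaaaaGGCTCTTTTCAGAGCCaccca
Hist2h2ac: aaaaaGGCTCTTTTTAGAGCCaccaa
H2afx: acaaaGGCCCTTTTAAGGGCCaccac
The stem-loop of Hist2h2aa2 ends 35 bases before the end of its annotated transcript, and that of H2afx ends 822 bases before it. These letters were not found in the annotated transcripts of Hist2h3b, Hist2h2ab and H1f0. The searched Hist2h3b ends at chr3:96269141 and Hist2h2ab at chr3:96220308, before their RefSeq ends at 96269155 and 96220354. A stem-loop past the searched end of these 2 would have been missed. AATAAA, the usual poly(A) signal, stood in the last 50 bases of H1f0 alone among the 7 histone genes. A stem-loop of this form was found in 437 of 21901 protein-coding transcripts (2%) and in 45 of 67 Hist1 to Hist4 genes (67.2%). A match is a description of letters and not of processing.

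The upstream regions of Hist2h3b and H1f0 are shown because they lie wholly inside exons of Gm20628 and Gm49544, so those rows span a histone promoter, one of an H3 gene and one of the linker histone gene. The window before Hist2h2aa2 also lies wholly inside Gm20632 and is not printed. Both windows hold the 250 bases before the RefSeq start (GRCm38.p6, plus strand), at chr3:96268404-96268653 and chr15:79027962-79028211. Capitals mark CCAAT on either strand.
Hist2h3b: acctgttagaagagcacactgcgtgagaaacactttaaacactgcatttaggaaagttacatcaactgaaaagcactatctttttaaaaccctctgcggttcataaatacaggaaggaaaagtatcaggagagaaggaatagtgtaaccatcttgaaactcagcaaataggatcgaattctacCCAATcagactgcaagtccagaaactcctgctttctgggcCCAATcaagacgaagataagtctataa
H1f0: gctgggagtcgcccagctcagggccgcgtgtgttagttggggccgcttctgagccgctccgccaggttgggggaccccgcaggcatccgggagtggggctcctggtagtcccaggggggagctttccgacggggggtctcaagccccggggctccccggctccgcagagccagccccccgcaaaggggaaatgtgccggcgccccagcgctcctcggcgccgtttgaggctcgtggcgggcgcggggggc
CCAAT, the letters of an NF-Y site, occurred at 2 positions before Hist2h3b, 1 before Hist2h2aa2, 3 before Hist2h2ab and 3 before Hist2h2ac. It occurred at none before Hist1h4b and H1f0, and in 33.8% of 32851 RefSeq promoters of the same length. TATAAA occurred before Hist2h2ab and Hist2h2ac and in 12.4% of promoters. GGGCGG occurred at 2 positions before Hist1h4b, at 2 before Hist2h2aa2 and in 32.7% of promoters. The octamer ATTTGCAT occurred before Hist2h2ac and in 1.6% of promoters. TTTCGCGC and TTTGGCGC, spellings of an E2F site, occurred before none of the 6 genes with an entry, against 0.256% and 0.417% of promoters. All 6 motifs were read on both strands, and the H1f0 window held none of them.

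The rows differ widely in how much of them is histone sequence. Gm20628 (chr3:96267075-96270289, minus strand) has 1 exon of 3215 bases that covers all 488 bases of Hist2h3b, and it also lies opposite Hist2h2bb by 381 bases and Gm42743 by 257 bases. Gm20632 (chr3:96239393-96241819, plus strand) has 2427 exon bases and covers all 528 bases of Hist2h2aa2. 4930558J22Rik (chr13:23755822-23757620, minus strand) shares 223 of its 1480 exon bases with Hist1h4b, and Gm15444 (chr3:96209627-96220168, minus strand) shares 303 of its 388 with Hist2h2ab. Gm49544 (chr15:79026456-79028612, minus strand) shares 163 of 2157 exon bases with H1f0 in GENCODE M21, or 7.56% of the row, and 401 bases with the earlier RefSeq start of H1f0. A count in Gm49544 therefore need not report the H1f0 message.

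**Figure D1:**
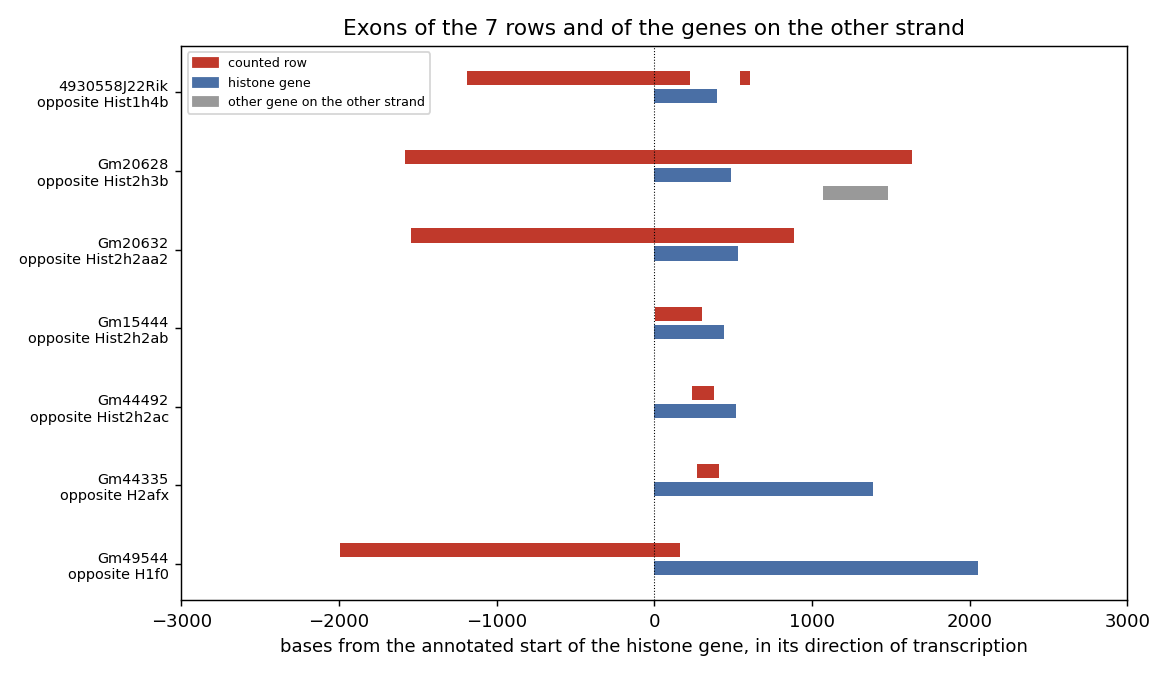
Exons of the 7 rows (red) drawn over the histone gene on the other strand (blue) and over other genes opposite the row (grey), in bases from the annotated start of the histone gene. Gm44492 and Gm44335 lie inside their gene, Gm20628 and Gm20632 reach past both ends of theirs, and Gm49544 meets H1f0 by 163 bases; a far exon of Gm15444 lies outside the range drawn.

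Each row held more counts than the row of the histone gene itself. Over all 12 libraries, 4930558J22Rik had 1870 counts against 8 for Hist1h4b, and Gm20628 had 12741 against 141 for Hist2h3b. Gm49544 had 3937 counts against 350 for H1f0, and Gm44335 had 1947 against 80 for H2afx. The remaining ratios were 10.3 for Gm20632 over Hist2h2aa2, 8.3 for Gm44492 over Hist2h2ac and 2.65 for Gm15444 over Hist2h2ab. The table lists the 7 histone genes by their newer symbols (H4c2, H3c13, H2ac19, H2ac21, H2ac20, H2ax and H1f0), and they were matched by identifier. Among the marker genes read below, rows on the other strand also held more counts for Cyp2f2 (598300 against 1831), Gng13 (75303 against 313) and Krt5 (13281 against 133). Of the markers with such a row, only Alas2 (1300 against 3875) and Cd247 (625 against 9486) went the other way. The strand setting of the counting is not given in the sources used here. Whether the counts of a row come from the row or from the gene opposite it was not tested. The name of a row is used below for its counts alone.

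**Figure D2:**
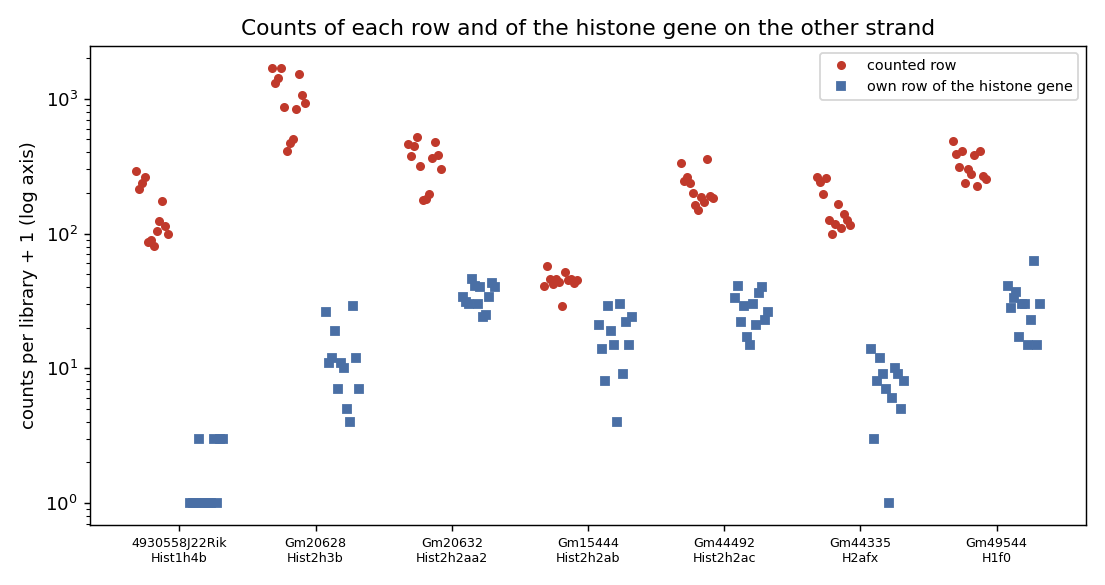
Counts per library plus 1 (log axis) of each row (red circles) and of the histone gene on the other strand (blue squares), 12 libraries each. The rows stand above the genes in every pair over the 12 libraries together, most of all 4930558J22Rik over Hist1h4b (1870 against 8 counts) and least for Gm15444 over Hist2h2ab (524 against 198).

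Some of these rows share sequence with other genes. Of the windows of 50 bases in Gm44335, 48.9% also occur in other annotated genes, most often Hist1h2ab, and the share was 42.1% in Gm20632, most often with Gm20633. It was 24.2% in Gm15444, 16.3% in Gm44492, 11.1% in Gm20628 and 7.13% in 4930558J22Rik. Gm49544 shared 0%. How the authors treated reads that fit several places is not given in the sources used here, so the split of counts between such copies is uncertain for every row but Gm49544. Gm47311, a second row opposite Hist2h2aa2, was listed at 0 in all 12 libraries.

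Library totals ran from 1658420 to 3227138 counts, so 3 counts, the detection floor used here, stood for 0.839 to 2.06 CPM (counts scaled to a common library total with edgeR's TMM factors). Day 10 replicates 2, 3 and 5 stood apart from the other 9 libraries. The single row CT010467.2 took 25.53%, 17.87% and 22.95% of their counts, against 11.2% in day 10 replicate 1, 9.694% to 12.63% at day 5 and 7.246% to 10.12% in vehicle. In the same 3 libraries, log2 CPM increased with GC content, by 0.35, 0.19 and 0.27 per 10 points of GC relative to the mean library. The slope was -0.05 in day 10 replicate 1, -0.12 to -0.03 at day 5 and -0.14 to -0.11 in vehicle. The day 10 values of the 7 rows are therefore also given from a fit that removes each library's GC trend and from one that takes the CT010467.2 share as covariate. The share averaged 19.39% at day 10, against 10.87% at day 5 and 8.659% in vehicle. Share and GC slope thus go with the day 10 group, and these fits cannot tell them apart from it. A smaller value in either fit does not show a cause.

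The labelled nasal epithelium was set beside markers. All 5 secretory markers and all 4 basal markers had counts, although Scgb1a1 had 1 count in all. The row opposite Cyp2f2, an airway secretory enzyme, held 23100 to 29560 CPM at day 5, 17910 to 22070 CPM at day 10 and 21100 to 27600 CPM in vehicle. All 5 ciliated and all 5 olfactory neuron markers were counted too, although Dynlrb2 had 11 counts in all and Cnga2 56. No own row of the muscle, erythroid, lymphocyte or cartilage and bone lists was at 0 in all libraries either. Having counts therefore does not tell which tissue was sampled. Of 6 neutrophil markers S100a8 was at 0 in all libraries. At day 5, 3 marker sums stood clear of vehicle. The own rows of 5 lymphocyte genes summed to 441.4 to 471.4 CPM at day 5, against 359.3 to 387.2 CPM in vehicle, and those of 5 ciliated genes to 282 to 341.9 CPM at day 5, against 356.3 to 439.5 CPM in vehicle. The 1 row opposite a ciliated gene, Ttc14 opposite Ccdc39, held 473.1 to 535.3 CPM at day 5, against 543.6 to 615.3 CPM in vehicle. The lymphocyte sum rests on Cd247, with 336 to 1345 counts per library, while Cd3e had 1 count in all. The ciliated sum rests most on Ccdc39, with 5405 counts in all, so both ciliated values draw on the same locus. At day 10, 2 sums stood clear of vehicle. The own rows of 6 muscle genes summed to 134.3 to 207.3 CPM at day 10, against 101.9 to 131.4 CPM in vehicle, and the 1 row opposite a neutrophil gene, Gm11505 opposite Mpo, held 0 to 0.628 CPM at day 10, against 2.90 to 19.9 CPM in vehicle. The muscle sum rests most on Atp2a1, which lies opposite Rabep2 and had 2650 counts in all, while Tnnt3 had 11. The part of any of these marker values in the values of the histone rows was not tested.

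4930558J22Rik, opposite the H4 gene Hist1h4b, had 124, 102, 111 and 132 CPM in the day 5 libraries, 44.2, 61.1, 50.2 and 59.4 CPM in the day 10 libraries, and 51.0, 48.4, 56.8 and 44.8 CPM in the vehicle libraries. All 4 day 5 libraries lay above every other library, while day 10 and vehicle overlapped. The log2 fold change was 1.22 (SE 0.15) for day 5 over vehicle and -1.13 (SE 0.16) for day 10 over day 5.

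Gm20628, opposite the H3 gene Hist2h3b, was the most abundant row. It had 722, 632, 668 and 855 CPM at day 5, 447, 281, 292 and 288 CPM at day 10, and 349.8, 425, 539 and 421 CPM in vehicle. The day 5 libraries were again above all others, and day 10 replicate 1 stood above the other 3 day 10 libraries and inside the vehicle range. The log2 fold change was 0.73 (SE 0.16) for day 5 over vehicle and -1.13 (SE 0.16) for day 10 over day 5.

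The 3 rows opposite Hist2 H2A genes did not share a pattern. Gm20632 had 197, 179, 207 and 261 CPM at day 5, 163, 121, 112 and 111 CPM at day 10, and 150.2, 132, 193 and 137 CPM in vehicle. Its day 5 libraries lay above every day 10 library and overlapped vehicle through day 5 replicate 6 and vehicle replicate 5, with a log2 fold change of 0.47 (SE 0.16) for day 5 over vehicle. Gm20632 tracked Gm20628, a neighbour in the Hist2 cluster: Pearson's r was 0.95 over the 12 libraries and 0.84 once group means were removed, points that share library and depth.

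Gm44492 had 141, 117, 121 and 119.9 CPM at day 5, 103, 112, 93.5 and 106 CPM at day 10, and 70.1, 99.0, 95.9 and 82.4 CPM in vehicle. Day 5 lay above both other groups, which overlapped each other, and the log2 fold change was 0.52 (SE 0.14) for day 5 over vehicle and -0.27 (SE 0.14) for day 10 over day 5. Gm15444 was the scarcest row, with 17.0, 26.9, 21.02 and 20.7 CPM at day 5, 23.2, 29.5, 17.6 and 29.1 CPM at day 10, and 18.3, 12.6, 21.3 and 19.9 CPM in vehicle. Its 3 groups overlapped throughout, and it alone averaged more at day 10 than at day 5, by a log2 fold change of 0.22 (SE 0.25).

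Gm44335, opposite the H2AX gene, had 111, 116, 90.6 and 129 CPM at day 5, 64.8, 68.0, 73.4 and 93.7 CPM at day 10, and 45.2, 38.9, 64.0 and 52.1 CPM in vehicle. All day 5 and all day 10 libraries lay above all vehicle libraries, the closest pair being 64.8 CPM in day 10 replicate 1 and 64.0 CPM in vehicle replicate 5. The log2 fold change was 1.17 (SE 0.17) for day 5 over vehicle, against 0.52 for the nearly identical letters of Gm44492.

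Gm49544, opposite the linker histone gene H1f0, had 206, 185, 145 and 205 CPM at day 5, 122, 207, 174 and 218 CPM at day 10, and 93.0, 114, 136 and 115 CPM in vehicle. Day 5 lay above vehicle, and so did day 10 except replicate 1, which fell inside the vehicle range. It averaged 185 ± 29 CPM at day 5, 180 ± 43 CPM at day 10 and 114 ± 18 CPM in vehicle (SD, n = 4 each). The log2 fold change was 0.70 (SE 0.17) for day 5 over vehicle and -0.04 (SE 0.17) for day 10 over day 5.

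**Figure D3:**
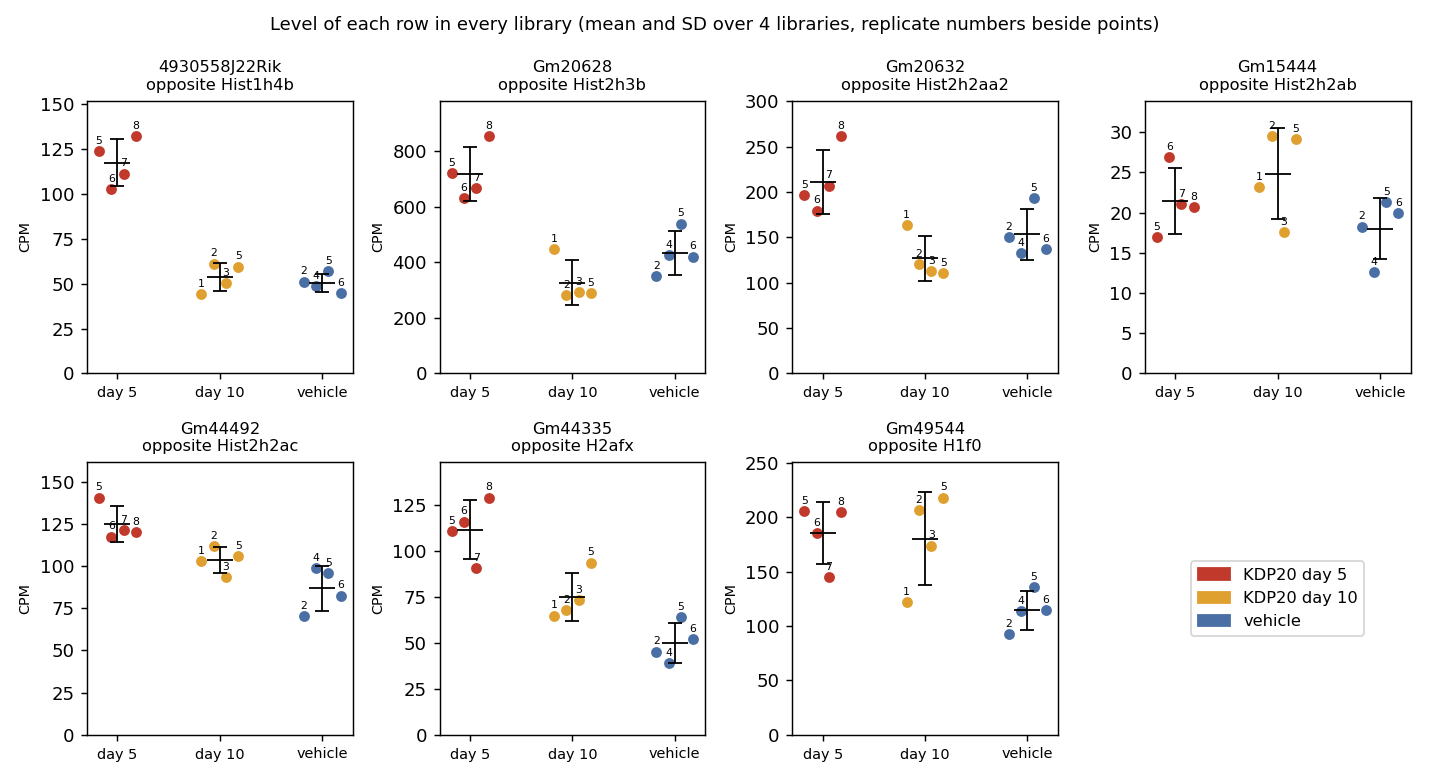
CPM of each row in every library, with the mean and SD of 4 libraries per group and replicate numbers beside the points, for KDP20 day 5, KDP20 day 10 and vehicle. 4930558J22Rik and Gm20628 are highest in all 4 day 5 libraries, while Gm49544 is as high in day 10 replicates 2, 3 and 5 (174 to 218 CPM) as at day 5 (145 to 206 CPM).

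Per kilobase of exon, the order of mean levels was led by the 2 shortest rows, of 141 bases each. Reads that reach past so short a row can still count for it. The values therefore do not put rows of different length on a common scale. Gm44492 averaged 885 CPM per kb at day 5, 734 at day 10 and 616 in vehicle, and Gm44335 averaged 791 at day 5, 532 at day 10 and 355 in vehicle. Gm20628 followed with 224 CPM per kb at day 5, 102 at day 10 and 135 in vehicle. At day 5 the next 3 rows, Gm20632 (87.0), Gm49544 (85.8) and 4930558J22Rik (79.3), lay within the spread of their libraries, and Gm15444 was lowest at 55.2 CPM per kb.

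In the day 5 comparison that chose them, all 7 rows were above vehicle, and the edgeR test called 3 of them higher, where 0.410% of tested rows were called higher. The libraries of 5 rows did not overlap vehicle at day 5, where 5.86% of tested rows had no overlap in that direction. Of the 7, 4 were called lower at day 10 than at day 5, and the libraries of 4 did not overlap in that direction, beside 5.49% and 6.76% of tested rows. Of the 3981 tested rows opposite protein-coding genes, 48 were called higher at day 5 than in vehicle, and 540 lower at day 10 than at day 5. Nothing is read from these counts. Over all tested rows the median log2 fold change at day 5 was -0.03, and over the 3981 rows opposite protein-coding genes it was 0.17, against 0.70 over the 7 rows. Scaling by the rows opposite protein-coding genes alone lowered the median of all rows at day 5 by 0.17. All 7 rows stayed above vehicle, again in the comparison that chose them.

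Day 10 against vehicle was tested, with the reservation that its vehicle libraries also entered the comparison that chose the rows. The edgeR quasi-likelihood test with Benjamini-Hochberg adjustment over 13181 rows called 2 of the 7 rows higher at day 10 and none lower. Of all tested rows, 3.93% were called higher and 3.15% lower. Of the 3981 tested rows opposite protein-coding genes, the kind to which the 7 belong, 348 were called higher and 163 lower. Gm49544 was higher by a log2 fold change of 0.66 (SE 0.17, adjusted p = 0.0218) and in 3 of 4 day 10 libraries above all vehicle libraries. Gm44335 was higher by 0.59 (SE 0.18, adjusted p = 0.0427), and it was the 1 row whose day 10 libraries did not overlap vehicle, which held in this direction for 4.98% of tested rows. The median of the 7 log2 fold changes was 0.25, beside -0.01 over all tested rows and 0.08 over those opposite protein-coding genes.

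The other 5 rows did not pass the edgeR test at day 10. The log2 fold change was -0.41 (SE 0.16, adjusted p = 0.112) for Gm20628 and -0.27 (SE 0.16, adjusted p = 0.319) for Gm20632. It was 0.48 (SE 0.25, adjusted p = 0.246) for Gm15444, 0.25 (SE 0.14, adjusted p = 0.294) for Gm44492 and 0.09 (SE 0.16, adjusted p = 0.77) for 4930558J22Rik. Without day 10 replicate 1, Gm20628 and Gm20632 were called lower, at -0.59 (adjusted p = 0.00181) and -0.41 (adjusted p = 0.0497). With the GC trend removed, the day 10 value was -0.28 for Gm20628, -0.23 for Gm20632, 0.16 for Gm15444, -0.09 for Gm44492 and 0.41 for 4930558J22Rik. With CT010467.2 share in the model it was -0.02 for Gm20628, 0.04 for Gm20632, 0.03 for Gm15444, 0.14 for Gm44492 and -0.22 for 4930558J22Rik. Neither fit called any of the 7 rows.

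Both day 10 calls depended on single libraries. They were lost when day 10 replicate 2 or 5 or vehicle replicate 2, 4 or 6 was left out, with edgeR adjusted p up to 0.186 for Gm44335 and 0.108 for Gm49544. Gm44335 also lost its call without day 10 replicate 3 and without day 5 replicate 5, 6 or 7. The rows with positive day 10 values of at least 0.25 are the GC-rich ones: GC content is 60.1% in Gm49544, 63.1% in Gm15444, 64.5% in Gm44492 and 68.1% in Gm44335, against 50.3% in Gm20632, 47.6% in Gm20628 and 42.8% in 4930558J22Rik. With each library's GC trend removed, the log2 fold change at day 10 was 0.38 for Gm49544 (adjusted p = 0.175) and 0.19 for Gm44335 (adjusted p = 0.602). With CT010467.2 share in the model, Gm49544 stood at -0.02 (SE 0.2145) and Gm44335 at 0.29 (SE 0.265; adjusted p = 0.999 each by edgeR). The standard errors were larger than in the main fit, because the share goes with the day 10 group and the 2 cannot be told apart. The day 5 values moved less under the same 2 fits, to 0.66 and 0.56 for Gm49544 and to 1.00 and 1.11 for Gm44335.

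**Figure D4:**
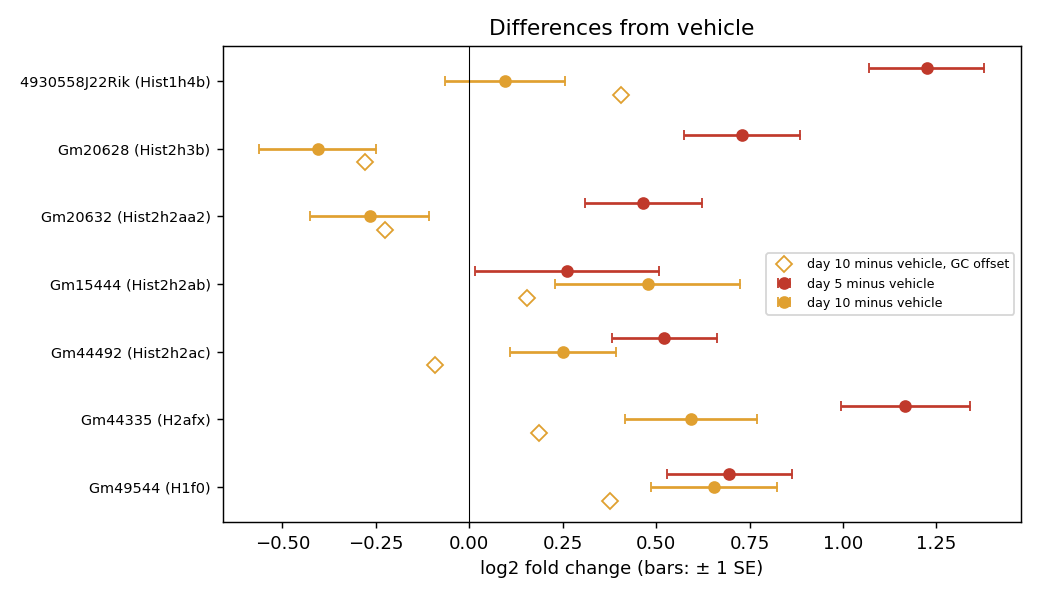
Log2 fold change over vehicle of each row at day 5 (red) and day 10 (yellow), with bars of 1 SE, and at day 10 with each library's GC trend removed (open diamonds). Every day 5 point is above 0, and at day 10 the GC-corrected value is 0.19 for Gm44335 and 0.38 for Gm49544, against 0.59 and 0.66 uncorrected.

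The contrast between the 6 other rows and Gm49544 was read as the difference of log2 CPM within each library. The mean of the 6 minus Gm49544 was -0.47 ± 0.18 at day 5, -1.02 ± 0.39 at day 10 and -0.51 ± 0.14 in vehicle (SD, n = 4 each). In this mean, day 5 and vehicle therefore differed by less than their spread, although single rows moved both ways, as given below. At day 5 the 6 rows averaged a log2 fold change of 0.73 over vehicle, and Gm49544 one of 0.70. At day 10 the 6 rows averaged 0.12 over vehicle, and Gm49544 0.66. The difference at day 10 was -1.22, -1.17 and -1.26 in replicates 2, 3 and 5, below every other library, and -0.45 in replicate 1, inside the range of day 5 and vehicle.

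Among the 6, the difference from Gm49544 changed most at day 10 for Gm20628. It narrowed: Gm20628 stood above Gm49544 by 0.86 ± 0.68 log2 units at day 10 and by 1.91 ± 0.05 in vehicle. Gm20632 changed sign, from 0.41 ± 0.22 in vehicle to -0.49 ± 0.62 at day 10. The gap of 4930558J22Rik went from -1.16 ± 0.21 to -1.71 ± 0.18 and that of Gm44492 from -0.39 ± 0.13 to -0.76 ± 0.35. That of Gm15444 went from -2.62 ± 0.34 to -2.81 ± 0.36. For Gm44335 the gap was -1.24 ± 0.28 at day 10 and -1.19 ± 0.23 in vehicle (SD, n = 4 each), a difference smaller than the spread. At day 5 the gap was smaller than in vehicle for Gm44335 (-0.72 ± 0.11) and for 4930558J22Rik (-0.65 ± 0.20, against -1.16 ± 0.21). Gm15444 went the other way, from -2.62 ± 0.34 in vehicle to -3.06 ± 0.39 at day 5. So did Gm20632, from 0.41 ± 0.22 to 0.19 ± 0.29, and Gm44492, from -0.39 ± 0.13 to -0.56 ± 0.22. Gm20628 stood at 1.96 ± 0.21 at day 5. Over the 12 libraries, Gm49544 correlated with Gm44335 at r = 0.82 and with Gm20628 at r = 0.13. The day 10 fold change of the 6 rows less that of Gm49544 was -0.53 by TMM scaling, -0.70 without day 10 replicate 1, -0.35 with the GC trend removed and 0.06 with CT010467.2 share in the model. This difference was not tested, because the rows were chosen with results known.

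**Figure D5:**
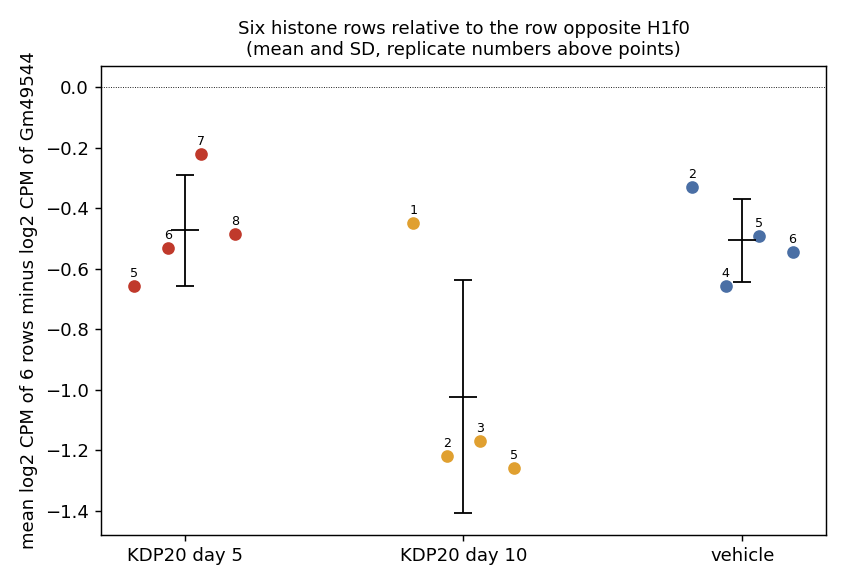
Mean log2 CPM of the 6 other rows minus log2 CPM of Gm49544 in each library, with mean and SD per group. Day 10 replicates 2, 3 and 5 lie near -1.2, apart from the other 9 libraries, which lie between -0.66 and -0.22.

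The histone genes' own rows gave little to set beside this. Hist1h4b had 0 to 2 counts per library and H2afx 0 to 13, and neither was tested. None of the 5 tested own rows was called at day 10: the log2 fold change was 0.16 (edgeR adjusted p = 0.816) for H1f0, -0.03 (0.984) for Hist2h3b, 0.45 (0.386) for Hist2h2aa2, 0.50 (0.574) for Hist2h2ab and -0.02 (0.980) for Hist2h2ac.

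Rows opposite other histone genes place the 7 among their kind. Of 15 rows opposite Hist1 H2A genes, 8 were tested, and their median log2 fold change was 1.41 at day 5 (range 0.59 to 1.76) and 0.02 at day 10, beside 0.63 and 0.17 for the 6 rows without Gm49544. Gm20633, opposite Hist2h2aa1, had 0.38 (SE 0.17) at day 5 and -0.33 (SE 0.18) at day 10. Gm44313, opposite Hist3h2a, had 0.58 (SE 0.14) at day 5 and -0.09 (SE 0.15) at day 10. Rows opposite variant histones that are made outside S phase are set beside them. The day 5 value was 0.35 (SE 0.13) for Gm5577, opposite the linker histone gene H1fx, and 0.35 (SE 0.11) for Gm47071, opposite the macroH2A gene H2afy. Aifm2, opposite the second macroH2A gene H2afy2, had 0.08 (SE 0.15) at day 5 and -0.13 (SE 0.15) at day 10. Gm44364, opposite H2afj, had 0.52 (SE 0.13) at day 5 and 0.43 (SE 0.13, edgeR adjusted p = 0.0513) at day 10. Gm5577 had -0.09 (SE 0.13) at day 10.

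The tested rows whose profile over the 12 libraries was closest to the mean of the 6 rows were Mmp24 (Pearson's r 0.97, opposite BC029722), Tlcd1 (0.96, opposite Rpl23a), Gm9996 (0.96, opposite Soga3), Gm42413 (0.95, opposite Qdpr) and Gm44297 (0.94, opposite Hist1h2af). The closest to Gm49544 were Tug1 (0.96, opposite Morc2a), Gm11696 (0.96, opposite Gna13), Tomm6os (0.96, opposite Tomm6), Ocel1 (0.95, opposite Nr2f6) and BC024978 (0.94, opposite Itpkc). One of the first 5 lies opposite a histone gene and none of the second 5. These are the highest of all tested rows and share libraries and depth, so they describe likeness alone.

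Genes that act with these histones were read by their own rows and by the rows opposite them. The gene lists were chosen with earlier results of these libraries known. Here too a name stands for the counts of its row, which may come from a gene on the other strand. The list for histone mRNA processing also held Ccne2 and Npat, which are not processing factors, and 10 of its 15 genes were tested by own row. At day 10, Ccne2 and Npat were the 2 called lower, and none was called higher. Of all tested rows, 3.15% were called lower and 3.93% higher. No own row of a processing factor was called. Of the 10, 4 were above vehicle, among them Cpsf3, a cleavage enzyme of mRNA ends, at 0.62 (SE 0.23, edgeR adjusted p = 0.102) with all day 10 libraries above vehicle. The row of Ccne2, a cyclin of S phase entry, fell by 0.86 on the log2 scale (SE 0.16, edgeR adjusted p = 0.00608). Ccne2 lies opposite Ints8, whose own row held 0 to 20 counts per library, against 82 to 479 for Ccne2. The row of Npat, the factor that switches on replication-linked histone genes, fell by 0.82 (SE 0.22, edgeR adjusted p = 0.025). The row Gm10459, opposite Slbp, had a log2 fold change of 0.27 (SE 0.24, edgeR adjusted p = 0.541) at day 10. Among rows opposite this list 1 of 5 was called, Nox1 opposite Cstf2, which fell by 0.89 (SE 0.24, edgeR adjusted p = 0.0268).

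For histone chaperones, none of 8 tested own rows was called at day 10, and 1 of 5 opposite rows was, Mcm9 opposite Asf1a, which fell by 0.49 (SE 0.14, edgeR adjusted p = 0.0361). At day 5 the row of Nasp, a carrier of H3 and H4, fell by 0.71 (SE 0.15, edgeR adjusted p = 0.0384), where 0.250% of tested rows were called lower. For DNA replication, 1 of 14 own rows and none of 11 opposite rows was called at day 10. The row of Rfc4, a subunit of the clamp loader, lies opposite Eif4a2 and fell by 1.03 (SE 0.25, edgeR adjusted p = 0.0167). For mitosis, 1 of 8 own rows was called at day 10. It was the row of the condensin subunit Ncapg, which lies opposite Lcorl and fell by 0.91 (SE 0.26, edgeR adjusted p = 0.0348).

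The day 5 calls of these lists are a description, because earlier results were in view when the lists were chosen. Rows opposite mitosis genes were high at day 5. All 5 tested were above vehicle at day 5, with a median log2 fold change of 1.02. The edgeR test called 3 of them higher, where 0.410% of tested rows were, and 48 of the 3981 opposite protein-coding genes. The 3 were Lcorl (opposite Ncapg), Rccd1 (opposite Prc1) and Cdc23, and each lost its call without day 5 replicate 5. Lcorl also lost it without day 5 replicate 6 or 8 or vehicle replicate 2 or 4, Rccd1 without vehicle replicate 2, and Cdc23 without day 5 replicate 8 or vehicle replicate 4 or 6. None of the 5 was called at day 10, with a median of -0.14. Opposite rows of other lists were mostly above vehicle at day 5 too. They were 5 of 5 for mRNA processing (median 0.50), 5 of 5 for chaperones (0.31) and 4 of 4 for variant histones (0.35). For DNA replication they were 9 of 11 (0.29), with 1 called higher, and for DNA break signalling 3 of 5 (0.04). The median over the 3981 rows opposite protein-coding genes was 0.17. For signalling from DNA breaks, where H2AX acts, none of 5 own rows and none of 5 opposite rows was called at day 5 or day 10. Among 7 tested own rows of variant histones, that of the linker histone gene H1fx rose at day 10 by 0.69 (SE 0.21, edgeR adjusted p = 0.0462). None of the 8 tested own rows of other replication-linked histones was called at day 5 or day 10. Among 10 tested rows opposite them, 6 were called higher at day 5. That held for 0.410% of all tested rows and 48 of the 3981 opposite protein-coding genes. At day 10, 1 of the 10 was called higher, beside 3.93% of all tested rows and 348 of the 3981. The day 5 calls were Gm44297, Gm44454, Gm44484, Gm44346, Gm44394 and Gm44350, of which Gm44297 and Gm44454 were called whichever library was left out. All of the other 4 lost their call without day 5 replicate 5. Gm44346 also lost it without day 5 replicate 8 or vehicle replicate 2 or 4, Gm44394 without day 5 replicate 6 or 8 or vehicle replicate 4 or 6, and Gm44350 without day 5 replicate 6 or 8 or vehicle replicate 2, 4 or 6. With the GC trend removed, Gm44394 and Gm44350 were not called (edgeR adjusted p = 0.0566 and 0.0576). The day 10 call was Gm44297, which rose by 0.56 (SE 0.16, edgeR adjusted p = 0.0423).

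Of these 8 calls at day 10, none held once the GC trend was removed, where Ccne2 stood at -0.42 (edgeR adjusted p = 0.0883) and Rfc4 at -0.76 (adjusted p = 0.0853). Ccne2 alone kept its call without any 1 library. H1fx lost its call without any library but day 10 replicate 1. Rfc4 lost its call without day 10 replicate 3 or 5 or vehicle replicate 2. Nox1 lost its call without day 10 replicate 2 or 5 or vehicle replicate 2 or 6, and Npat without any of day 10 replicates 2, 3 and 5 or vehicle replicates 2, 4 and 6. Ncapg lost its call without day 10 replicate 2, 3 or 5 or any vehicle library. Gm44297 lost its call without day 5 replicate 5, 6 or 7, day 10 replicate 2 or 5, or vehicle replicate 2, 4 or 5. Mcm9 lost its call without day 5 replicate 5 or 7, day 10 replicate 2, 3 or 5, or vehicle replicate 2, 5 or 6. At day 5, Nasp lost its call without day 5 replicate 5, 6 or 8 or vehicle replicate 2, 4 or 6.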

How the data were processed

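Gene counts of 12 nasal libraries were analysed, 4 per group. Per the submitters' processing notes, the authors used FastQC, Trim Galore, STAR, HTSeq and mm10, and the deposited unit is counts. Not given in the sources used here are tool versions, the annotation release, the strand setting and the treatment of reads that fit several places.

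Rows were placed in GENCODE M21 by identifier (55141 of 55487 found), and a row was called opposite a gene at 50 or more shared exon bases. Rows were filtered with filterByExpr, scaled by TMM and tested with edgeR 4.0.16 (quasi-likelihood, all 12 libraries in 1 model, R 4.3.3), with a Benjamini-Hochberg adjusted p under 0.05 as the call. The tested rows held 98.3% of counts, and the variance between replicates of a group was 3.17 to 22.4 times that of counting (18 pairs). CPM uses TMM-scaled totals, correlations and differences use log2 CPM with a prior count of 2, and standard errors come from the F statistic. Floors cover counting error only. Alternatives used DESeq2 1.42.0 and limma 3.58.1 (voom), the GC fit a loess of span 0.5. The fit was tested on simulated data. Sequences came from GENCODE and RefSeq with Python 3.11.15, and 6 of 7 histone genes had a promoter entry.

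The members and gene lists were chosen with earlier results of these data known. Named rows are the 7 members, their partners, the 5 rows most correlated with the mean of the 6 rows and the 5 with Gm49544, and up to 4 per list with the smallest p at day 10. Of these, the called ones and those that bear on a member are printed. Rows opposite other histone genes were named after their values were seen, and so was Nasp's day 5 value.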

Additional observations from a re-analysis of the deposited data

Results flagged for a closer look

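Gm20628, the row opposite Hist2h3b, had 447 CPM in day 10 replicate 1, against 281, 292 and 288 CPM in the other 3 day 10 libraries. The gap to the nearest library was 0.933 of the range of the group, above Dixon's critical value of 0.829 for 4 samples. Of 21 groups of 4 values examined (7 rows in 3 groups), this was the 1 that passed it, and chance alone passes about 1 group in 20. The same library had the lowest CT010467.2 share (11.2%) and the lowest GC slope (-0.05) of the day 10 group; their part in the Gm20628 value was not tested.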

How the results depend on the processing

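At day 10 over vehicle, 933 rows were called, with 3137 at an unadjusted p under 0.05. With CT010467.2 share in the model the count was 0 by edgeR (500 unadjusted), for day 10 over day 5 it was 2, and for day 5 over vehicle 370, beside 1337 and 87 without it. That fit called 0 members and 0 listed rows, beside 2 and 8, and turned 4930558J22Rik to -0.2155, Gm20632 to 0.0401 and Gm49544 to -0.0151 at day 10. It cannot tell the share apart from the day 10 group, where the share was highest. With the GC trend removed, 403 rows, 0 members and 0 listed rows were called at day 10, and Gm44492 turned to -0.0923. Day 5 over vehicle called 401 rows scaled by opposite rows (46 higher and 355 lower, beside 54 and 33), 511 by the DESeq2 Wald test, 284 by limma-voom, 278 unfiltered, 135 at 10 CPM in 4 libraries and 656 in the 8 libraries alone. Opposite-row scaling also split day 10 over vehicle into 425 higher and 658 lower, beside 518 and 415. The 8 libraries alone called 423 rows, 1 member and 2 listed rows at day 10.

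Leaving out 1 library each gave 95 to 2684 rows at day 10 over vehicle, 5 to 569 at day 5 over vehicle, 623 to 2689 at day 10 over day 5, 0 to 4 members and 1 to 23 listed rows; the lowest came without day 10 replicate 5 (both day 10 counts) or day 5 replicate 5, the highest of all 3 row counts without day 10 replicate 1. Day 10 and vehicle shared only replicate numbers 2 and 5, with same-numbered correlations of -0.036 and 0.124. These are too few to tell whether the numbers pair the samples. The replicate block called 1701 rows, 4 members and 13 listed rows at day 10 over vehicle and 33 rows at day 5. The DESeq2 Wald test called 11 listed rows and the filter of 10 CPM 12. The causes were not tested. In every alternative, all 7 rows kept a positive day 5 value, which is a description alone, because the rows were chosen with that value in view. With 1658420 to 3227138 counts per library, the own rows of Hist1h4b and H2afx held too few to pass the filter and were not tested.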
